A study of Mus musculus with 32 samples.

Results

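The 47 genes described here encode the machinery of DNA replication, from the origin recognition complex to the enzymes that join the finished strands. They were chosen by name, and each was represented by the probe set of 1 gene symbol with the highest mean over the 24 arrays that were not immunoprecipitates. Of the 47, 45 had such a probe set past the filter on dim signals, among 12600 genes past it in all. Chaf1a had no probe set of 1 symbol, and the probe set of Tyms, thymidylate synthase, failed the filter, with 5.63 on the first TGFβ-treated E1KD array of total RNA as its highest value.

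The cells were NMuMG, a normal mouse mammary gland epithelial line of wild type genotype, and E1KD, its derivative with knockdown of hnRNP E1, the RNA-binding protein that the gene Pcbp1 encodes. E1KD is 1 derived line, described by the study as undergoing epithelial-mesenchymal transition (EMT) without TGFβ, and how the knockdown was made is not given in the sources used here. Both lines were left untreated or given TGFβ2 at 5 ng/ml for 24 h. Total RNA, RNA of the monosomal pool of a sucrose gradient (not translating) and RNA of the polysomal pool (translating) were measured in each line and treatment, which gave 12 conditions. The remaining 4 conditions were immunoprecipitates from cytosol of untreated and TGFβ-treated NMuMG cells with α-hnRNP E1 antibody or IgG, with TGFβ likewise given for 24 h, a time that their labels omit. Each of the 16 conditions had 2 arrays, labelled as biological replicates. The study's methods call the 2 samples of a condition independent without saying whether they were separate cultures. A p-value here thus reflects only the scatter between arrays within conditions, which may be technical. That scatter was estimated jointly over all conditions of a fit, although replicates of total RNA were more alike than those of the pools.

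Replication starts when origins are licensed: ORC, Cdc6 and Cdt1 load the ring-shaped MCM helicase, which Mcm10, Cdc45 and the GINS complex then switch on. Polymerase alpha-primase lays down primers, the clamp loader RFC places the PCNA clamp, and polymerases delta and epsilon copy the strands while RPA covers single-stranded DNA. Ribonucleotide reductase and thymidine kinase supply the nucleotides, and E2F factors with cyclin E drive most of these genes as cells enter S phase. In mammary epithelial cells TGFβ is known as an inhibitor of this step.

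All values are log2 signals, so that a difference of 1 is a 2-fold change, and a member was called higher or lower when limma's adjusted p was below 0.05. In bulk RNA of this kind, fewer cells of a type and less RNA per cell cannot be told apart. Pcbp1 checked the knockdown: its total RNA level was 13.08 and 13.12 in untreated NMuMG cells and 10.79 and 10.86 in untreated E1KD cells. After TGFβ it was 13.14 on both NMuMG arrays and 9.55 and 9.33 in E1KD cells. Pcbp1 was thus itself called lower after TGFβ in E1KD total RNA, at -1.385, and its response differed between the lines by -1.425, also called. In treated E1KD cells TGFβ and this further fall of Pcbp1 come together and cannot be told apart. Replicate arrays correlated at r = 0.974 to 0.998. The untreated NMuMG monosomal arrays stood apart from the other pool arrays, with an SD over probe sets of 2.49 and 2.53 against 2.22 to 2.40, and with a correlation to total RNA of 0.932 against 0.755 to 0.882 for the other monosomal pools. Of the epithelial markers Cdh1, Krt8 and Krt18 were bright, Epcam was at 5.59 to 7.58 and Cldn3 at 5.76 to 8.29, while Cldn7 failed the filter. Of the 8 past the filter, 4 were called lower and 0 higher in untreated E1KD than in untreated NMuMG total RNA. Ocln fell furthest, from 9.45 and 9.48 in NMuMG to 6.43 and 6.30 in E1KD cells. Of 6 mesenchymal markers, 5 were called higher in the same comparison. Of the 3 leukocyte markers Ptprc failed the filter, Cd3e was at 5.01 to 6.83, and Cd68, a gene of macrophages, was at 6.67 and 6.48 in untreated NMuMG and at 8.21 and 8.41 in untreated E1KD total RNA, called higher with the knockdown. The endothelial markers Pecam1 and Cdh5 failed the filter. The part of Cd68, and of the epithelial and mesenchymal markers, in the differences of the members was not tested.

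Letters of E2F type (TTCCCGC or TTCGCGC or TTGCCGC or TTGGCGC on either strand) were searched in the 300 bases from 250 before to 50 after each RefSeq transcription start, since E2F factors are known regulators of these genes. Of the 47 genes, 38 matched a promoter entry, and 24 of them (63.2%) held such letters in at least 1 window. Among all 17492 protein-coding genes with an entry, 2404 (13.7%) did. The letters CCAAT were present in 63.2% of these 38 genes and in 42.3% of all genes. Windows of 29 bases follow, on the strand of the gene, from 6 members whose total RNA is described below, with the matched letters, or their reverse complement, in capitals (RefSeq, GRCm38.p6).
Rrm2: caccaacctcaGCGGCAAcgcccgcccgg
Rrm1: aggagaactcgTTCCCGCcaggtccgctt
Uhrf1: tgctttctcgcTTCCCGCcacagcgccag
Mcm5: caagaactttcGCGCCAAaacgtccagcc
Orc1: ttcggttagtgGCGCGAAaagttttctcc
Prim1: ggcctgtcttgTTCCCGCcaattctcgtg

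The window of Rrm2 lies at chr12:24708008-24708036 on the plus strand, and those of Rrm1 (chr7:102441617-102441645), Uhrf1 (chr17:56303278-56303306), Mcm5 (chr8:75109349-75109377), Orc1 (chr4:108579416-108579444) and Prim1 (chr10:128015189-128015217) are on the plus strand as well. The matched letters were centred at positions from -12 in Prim1 to -232 in Rrm2, counted in bases from the start. Genes without an entry were Ccne2, Gins1, Gins2, Gins4, Gmnn, Mcm4, Pole, Prim2 and Rfc2. The letters were present in 14 of the 21 matched members that rose in total RNA of E1KD cells after TGFβ (66.7%), and in 9 of the 15 other matched members past the filter (60.0%).

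The first comparison asked how TGFβ changed the total RNA of these genes in the parental cells. The changes were small and mostly downward. Tk1, thymidine kinase of the salvage pathway, was at 9.80 and 9.94 in untreated and at 8.93 and 9.04 in TGFβ-treated NMuMG cells. Uhrf1, which guides the maintenance of DNA methylation at the fork, was at 10.78 and 10.79 untreated and at 10.17 and 10.20 treated. For both genes the treated arrays were the lower ones, without overlap. Tk1 fell by 0.89 (SE 0.13, limma adjusted p = 0.00041), a 1.85-fold decrease, and Uhrf1 by 0.60 (SE 0.14, adjusted p = 0.013), a 1.52-fold decrease. These were the only 2 of 45 members called, both lower, beside 2.43% of all 25432 probe sets lower and 3% higher.

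The difference lay below 0 in 41 of the 45 members, against 48.8% of all probe sets, and its median was -0.23 against 0.005 over all probe sets. The 4 members above 0 were Gins4, Rfc3, Rpa1 and Rrm1, at 0.02 to 0.09. All 6 MCM genes (-0.42 to -0.07) and all 8 polymerase and primase genes (-0.36 to -0.03) were below 0, none called. At an unadjusted p under 0.05 there were 11 members. Uhrf1 lost its call with any 1 of the 4 arrays left out, which left Tk1 alone called, and fitting only the 4 arrays compared gave 11 calls.

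The same treatment of E1KD cells gave the opposite picture, with 25 of 45 members higher and 1 lower (11.4% and 9.75% of all probe sets). Ribonucleotide reductase led the list. Rrm2, its small subunit, was at 10.20 and 10.32 in untreated and at 12.33 and 12.18 in TGFβ-treated E1KD cells, against 10.34, 10.31, 10.15 and 10.03 in the NMuMG arrays. Rrm1, its large subunit, was at 10.68 and 10.63 untreated and 11.92 and 11.89 treated. The treated E1KD arrays were the highest of the 8 for both subunits, and the untreated E1KD arrays lay within the NMuMG range for Rrm2 and just below it for Rrm1. Rrm2 rose by 2.00 (SE 0.15, adjusted p = 1.7e-07), a 3.99-fold increase, and Rrm1 by 1.25 (SE 0.13, adjusted p = 5.6e-06), a 2.38-fold increase.

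Ccne2, cyclin E2, which activates Cdk2 at the start of S phase, was at 7.41 and 7.42 in untreated and at 9.0 and 9.19 in treated E1KD cells, and rose by 1.68 (SE 0.18, adjusted p = 4.9e-06). Tk1 went from 8.32 and 8.51 to 9.70 and 9.64, and rose by 1.26 (SE 0.13, adjusted p = 4.2e-06). Treated E1KD cells thus had a Tk1 level just below that of untreated NMuMG cells, whereas their Ccne2 arrays lay above all 6 other total RNA arrays. Uhrf1 moved in the same way as Tk1, from 9.32 and 9.51 to 10.61 and 10.51. Orc2, a subunit of the origin recognition complex, was the exception: it was at 10.33 and 10.46 untreated and at 9.50 and 9.54 treated, and fell by 0.88 (SE 0.13, adjusted p = 0.00014).

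**Figure D1:**
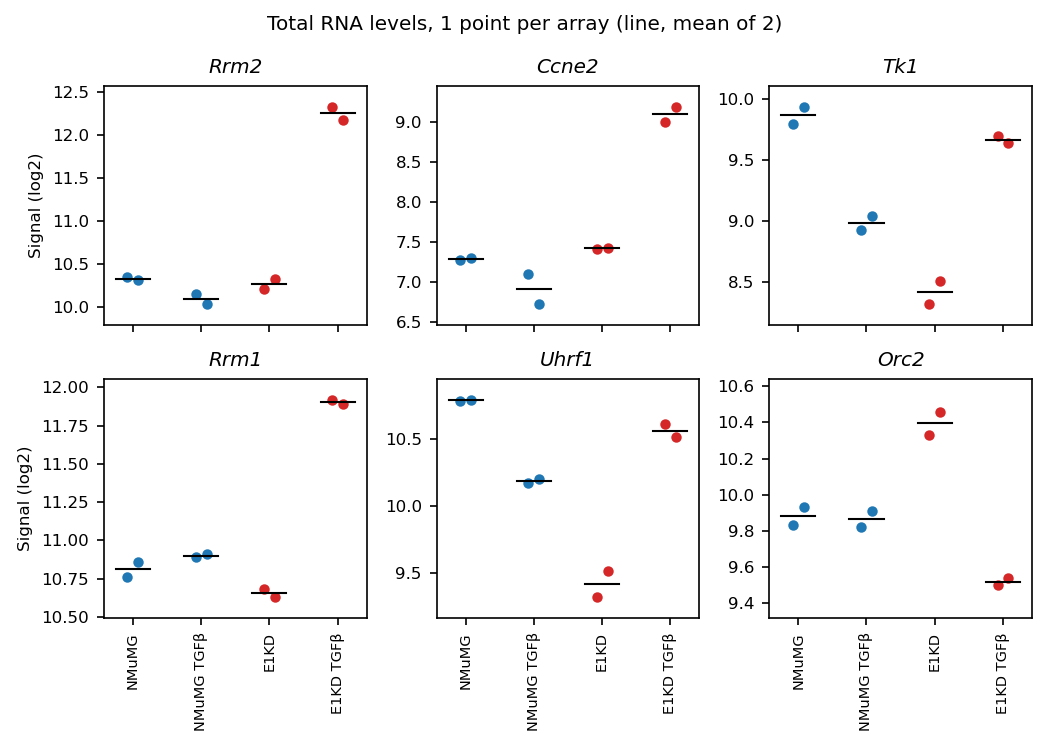
Total RNA level (log2 signal, vertical axis) of 6 members on each of 8 arrays, with a line at the mean of 2 arrays; blue is NMuMG and red is E1KD. Rrm2, Ccne2 and Rrm1 were highest in treated E1KD cells, Tk1 and Uhrf1 fell after TGFβ in NMuMG cells and rose in E1KD cells, and Orc2 fell in E1KD cells from 10.33 and 10.46 to 9.50 and 9.54.

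By role, all 3 measured genes of nucleotide supply rose, as did 5 of 6 MCM genes (Mcm5 by 1.05, Mcm3 by 0.93, Mcm4 by 0.88, Mcm6 by 0.65 and Mcm2 by 0.50). The values of Mcm5 and Mcm3 are at or near the top of a wide range. The 3 probe sets of Mcm5 ran from 0.205 to 1.05, and the 5 of Mcm3 from 0.125 to 0.94. In origin licensing 4 of 6 rose: Gmnn, geminin, which blocks Cdt1 from licensing again, by 1.24, Orc1 by 0.62, Orc6 by 0.54 and Cdt1 by 0.39. Among the polymerase genes 4 of 8 rose, namely the polymerase alpha subunits Pola1 and Pola2, the primase subunit Prim1 and the epsilon subunit Pole2, by 0.66 to 0.93. The polymerase delta genes Pold1 and Pold2 had differences of 0.12 and 0.20 and were not called. Both Rfc1 and Rfc5 of the 6 clamp and loader genes rose, by 0.39 and 0.41, as did Rpa1 and Rpa2 of the 3 RPA genes, and Gins1 alone of the 6 helicase activation genes (0.97). E2f1, the transcription factor, was not called at 0.06.

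Over the 45 members the median was 0.49, against -0.02 over all probe sets, and 43 lay above 0. This rise was not seen in the pools of the same cells, where a level is relative to the other genes of its pool. In the monosomal pool the median change was -0.375 (33 members below 0, 12 above), against -0.045 over all probe sets. In the polysomal pool it was -0.14 (29 below, 15 above), against 0.01. These pool changes are differences of means, without a test. With any 1 of the 4 arrays compared left out, 14 to 16 members were called in place of 26. Markers of cycling cells moved with these genes. Mki67, Cdk1 and Top2a rose by 2.07, 1.53 and 1.21 in E1KD cells after TGFβ, all called, while in NMuMG cells they differed by -0.06, -0.20 and -0.02, none called. Their part in the differences of the members was not tested.

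**Figure D2:**
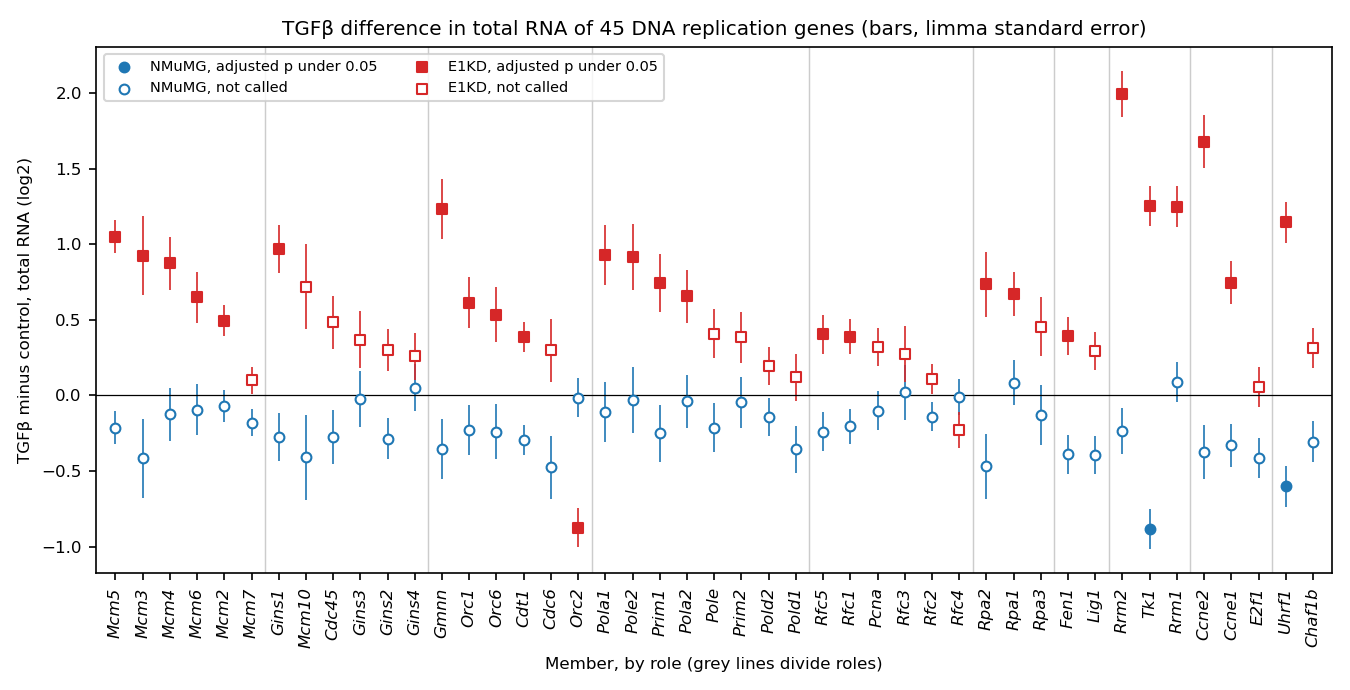
Difference in total RNA after TGFβ (log2, treated minus untreated, mean of 2 arrays each) of the 45 members, grouped by role, with limma standard errors; circles are NMuMG, squares are E1KD, and filled symbols have an adjusted p under 0.05. In NMuMG cells 41 of 45 lay below 0, and in E1KD cells 43 of 45 lay above 0, with Orc2 and Rfc4 as the exceptions.

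The difference between the 2 responses was tested as an interaction. The response of E1KD cells was higher for 22 members and lower for 1 (5.76% and 5.69% of all probe sets), with a median of 0.70 against -0.02 over all probe sets. From the levels given above, the difference of responses was 2.23 for Rrm2 (SE 0.22, adjusted p = 4.5e-06), 2.14 for Tk1 (SE 0.18, adjusted p = 1.4e-06), 2.06 for Ccne2 (SE 0.25, adjusted p = 4.7e-05) and 1.75 for Uhrf1 (SE 0.19, adjusted p = 1.6e-05). Orc2 was the member lower, at -0.86 (SE 0.18, adjusted p = 0.0052). Both Okazaki fragment enzymes were among the 22, the flap endonuclease Fen1 at 0.79 and the DNA ligase Lig1 at 0.69, as was Chaf1b, a subunit of chromatin assembly factor 1, at 0.62. Leaving out 1 of the 8 arrays gave 12 to 18 calls, with 15 or fewer for every array but the second TGFβ-treated NMuMG array. Centring each array on Actb and Gapdh gave 13 higher and 1 lower, and moved the median of all probe sets to -0.20.

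The other replication genes followed the members in this respect. Of 44 such genes past the filter (a list of 45 that holds, among others, Cdc7, Clspn, Dna2 and Dnmt1), none was called in NMuMG cells. There 3% of all probe sets were called higher and 2.43% lower. In E1KD cells 20 rose and 5 fell, beside 11.4% and 9.75% of all probe sets, so the share that fell was near that of all. Ccna2, cyclin A2, rose by 2.10, Dna2, a nuclease of Okazaki fragments, by 1.35, and Clspn, a fork mediator of the checkpoint, by 1.33. The interaction called 14 higher and 2 lower (5.76% and 5.69% of all probe sets), and the median difference of responses was 0.63.

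The knockdown by itself was assessed next, in untreated cells. There, 13 of 45 members were lower in E1KD cells and 7 higher (13.5% and 15.8% of all probe sets), with a median of -0.18. Gins1, a subunit of the GINS complex, was at 9.57 and 9.54 in NMuMG and at 8.24 and 8.32 in E1KD cells. Gmnn was at 10.22 and 10.35 in NMuMG and at 9.24 on both E1KD arrays. The groups did not overlap for either gene, nor for Tk1 and Uhrf1, whose levels are given above. The differences were -1.46 for Tk1 (SE 0.13, adjusted p = 2.8e-07), -1.37 for Uhrf1 (SE 0.14, adjusted p = 8.6e-07), -1.28 for Gins1 (SE 0.16, adjusted p = 1.1e-05) and -1.05 for Gmnn (SE 0.20, adjusted p = 0.00068). Pold1, the catalytic subunit of polymerase delta, fell by 0.96.

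Of the 6 clamp and loader genes 3 were called higher, Rfc1 and Rfc2 were not called at 0.12 and 0.11, and Pcna was lower by 0.39. The share of members called higher was near that of all probe sets. Rfc4 was at 8.77 and 8.76 in NMuMG and at 9.30 and 9.47 in E1KD cells, Rfc5 at 9.42 and 9.55 against 10.12 and 10.08, and Rfc3 at 7.87 and 7.84 against 8.40 and 8.50. In each of the 3 both E1KD arrays were the higher ones. They rose by 0.62, 0.62 and 0.60 (SE 0.12, 0.13 and 0.18), with adjusted p of 0.00086, 0.0017 and 0.021. Gins3, another GINS subunit, was at 6.56 and 6.64 against 7.55 and 7.48, and rose by 0.92 (SE 0.19, adjusted p = 0.0013). Rrm2 and Ccne2, the leading genes after TGFβ, differed by -0.06 and 0.13 and were not called. Mki67, Cdk1 and Top2a were lower by 0.79, 0.78 and 0.96 in untreated E1KD cells. Leaving out any 1 of the 4 arrays gave 10 to 12 calls, and Rfc3 then lost its call each time. Centring on Actb and Gapdh gave 7 higher and 8 lower.

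With TGFβ in both lines, 27 members were higher in E1KD cells and 1 lower (14.7% and 12.5% of all probe sets), and the median was 0.55. Mcm5, a subunit of the MCM helicase, was at 10.52 on both treated NMuMG arrays and at 12.14 on both treated E1KD arrays. Gins3 was at 6.53 and 6.62 against 7.86 and 7.91. The E1KD arrays were again the higher ones. The differences were 2.19 for Ccne2 (SE 0.18, adjusted p = 1.2e-07), 2.17 for Rrm2 (SE 0.15, adjusted p = 2.4e-08), 1.62 for Mcm5 (SE 0.11, adjusted p = 1.4e-08) and 1.31 for Gins3 (SE 0.19, adjusted p = 5.7e-05). Pold1 was lower, at 9.33 and 9.44 against 9.82 and 9.91, by -0.48 (SE 0.16, adjusted p = 0.03), and lost that call with any 1 of these arrays left out. The count was 16 without the first treated E1KD array and 17 without the first treated NMuMG array. The 2 comparisons with the knockdown, the 2 with TGFβ and the interaction all use the same 8 arrays.

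Next, the distribution between the pools was compared within each line and treatment, as the polysomal minus the monosomal level. In untreated NMuMG cells 34 of 45 members were lower in the polysomal pool and 4 higher, beside 41.9% and 29.3% of all probe sets, and the median was -1.0 against -0.14. Gins1 was at 9.77 and 9.78 in the monosomal and 7.27 and 7.19 in the polysomal pool, and Pcna, the sliding clamp, at 13.40 and 13.31 against 11.10 and 10.64. Mcm6 was at 10.65 and 10.80 against 8.52 and 8.32, and Orc6 at 9.86 on both arrays against 7.74 and 7.48. For all 4 genes the pools were far apart, with differences of -2.55, -2.49, -2.31 and -2.25 (SE 0.13 to 0.18, adjusted p of at most 2.8e-08). The members higher in the polysomal pool were Orc1 (monosomal 6.40 and 5.97, polysomal 7.84 and 7.59, difference 1.53, not called with the mean of its probe sets), Rfc4 (0.67), E2f1 (0.65) and Cdt1 (0.58). Rfc4 was at 8.52 and 8.79 in the monosomal and 9.43 and 9.21 in the polysomal pool, but the mean of its probe sets gave -0.25. E2f1 was at 9.07 and 9.04 against 9.68 and 9.72, and Cdt1, the licensing factor, at 12.28 and 12.15 against 12.73 and 12.85. With quantile normalization the split was 7 higher and 26 lower, and the median was -0.46 against 0.06 over all probe sets.

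In TGFβ-treated NMuMG cells the members were divided, with 20 higher and 12 lower in the polysomal pool (27.6% and 22.1% of all probe sets). The share lower was near that of all probe sets. Rrm2 was at 8.12 and 8.66 in the monosomal and 10.20 and 10.10 in the polysomal pool, a difference of 1.76, and Rfc4 at 7.77 and 7.96 against 9.52 and 9.54, a difference of 1.67. Prim1 and Rrm1 were also higher in the polysomal pool, by 1.61 and 1.39. Pold2, a small subunit of polymerase delta, was at 11.49 and 11.85 against 9.41 and 9.39, a difference of -2.27. Pold1, Mcm5 and Rpa2 followed it at -1.81, -1.65 and -1.48.

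In E1KD cells the members were divided with and without TGFβ, as were all probe sets. The share higher in untreated cells and the share lower in treated cells were near those of all probe sets. Untreated, 9 members were higher and 15 lower in the polysomal pool (16.8% and 18.2% of all probe sets), led by Prim1, the small primase subunit, at 9.38 and 9.14 in the monosomal and 10.53 and 10.77 in the polysomal pool, and by Rpa2, the middle subunit of RPA, at 8.91 and 8.93 against 6.72 and 7.30. The differences were 1.39 (SE 0.19, adjusted p = 2.8e-05) and -1.91 (SE 0.22, adjusted p = 4.4e-06). Treated, 20 were higher and 14 lower (34% and 26.6% of all probe sets). Prim1 was then at 8.16 and 8.20 in the monosomal and 10.45 and 10.59 in the polysomal pool, and Rpa2 at 8.94 and 8.96 against 7.09 and 7.16. The differences were 2.34 and -1.83, in the same direction as without TGFβ. Quantile normalization gave 14 higher and 15 lower in the untreated cells.

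The polysome shift is the change in that distribution after TGFβ, the quantity the study used to find messages moved into translation. In NMuMG cells 28 members shifted toward the polysomal pool and 8 toward the monosomal pool, beside 40.1% and 30.3% of all probe sets. The median was 1.00 against 0.09 over all probe sets. From the levels above and those below, the shift was 3.33 for Rrm2 (SE 0.22, adjusted p = 4.2e-09), 3.29 for Gins1 (SE 0.22, adjusted p = 6.1e-09), 3.25 for Ccne2 (SE 0.25, adjusted p = 2.1e-08) and 3.14 for Orc6 (SE 0.26, adjusted p = 3.9e-08). Toward the monosomal pool it was -1.87 for Pold2 (SE 0.18, adjusted p = 1.8e-07), -1.51 for Cdt1 (SE 0.14, adjusted p = 1.6e-07), -1.38 for Pold1 (SE 0.22, adjusted p = 4.3e-05) and -1.34 for Tk1 (SE 0.18, adjusted p = 9.5e-06).

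Each array was normalised as a whole, so a level stands relative to the other genes of the same pool. A change in the size of a pool cannot be seen. On that scale the levels were as follows. Rrm2 went in the monosomal pool from 11.56 and 11.61 to 8.12 and 8.66, while in the polysomal pool it was at 10.16 and 9.87 before and at 10.20 and 10.10 after TGFβ. Ccne2 likewise went from 8.03 and 8.44 to 4.81 and 5.03 in the monosomal pool, and was at 6.30 and 6.19 and then 6.39 and 5.97 in the polysomal pool. For these 2 genes the monosomal arrays did not overlap between treatments and the polysomal arrays did. Gins1 and Orc6 moved in both pools: Gins1 to 7.28 and 7.84 in the monosomal and 8.24 and 8.37 in the polysomal pool, and Orc6 to 7.42 and 8.20 and to 8.71 and 8.69. Pold2 went in the monosomal pool from 10.54 and 10.47 to 11.49 and 11.85 and was lower in the polysomal pool, at 10.18 and 10.02 before and 9.41 and 9.39 after.

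Over the 45 members the median change of the monosomal level in NMuMG cells was -0.79, with 33 below 0 and 21 lower by more than 1. The same drop of more than 1 was found in 28.3% of all probe sets. The polysomal level had a median change of 0.12, with 25 above 0 and 20 below. Single pools were compared by their means, without a test.

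**Figure D3:**
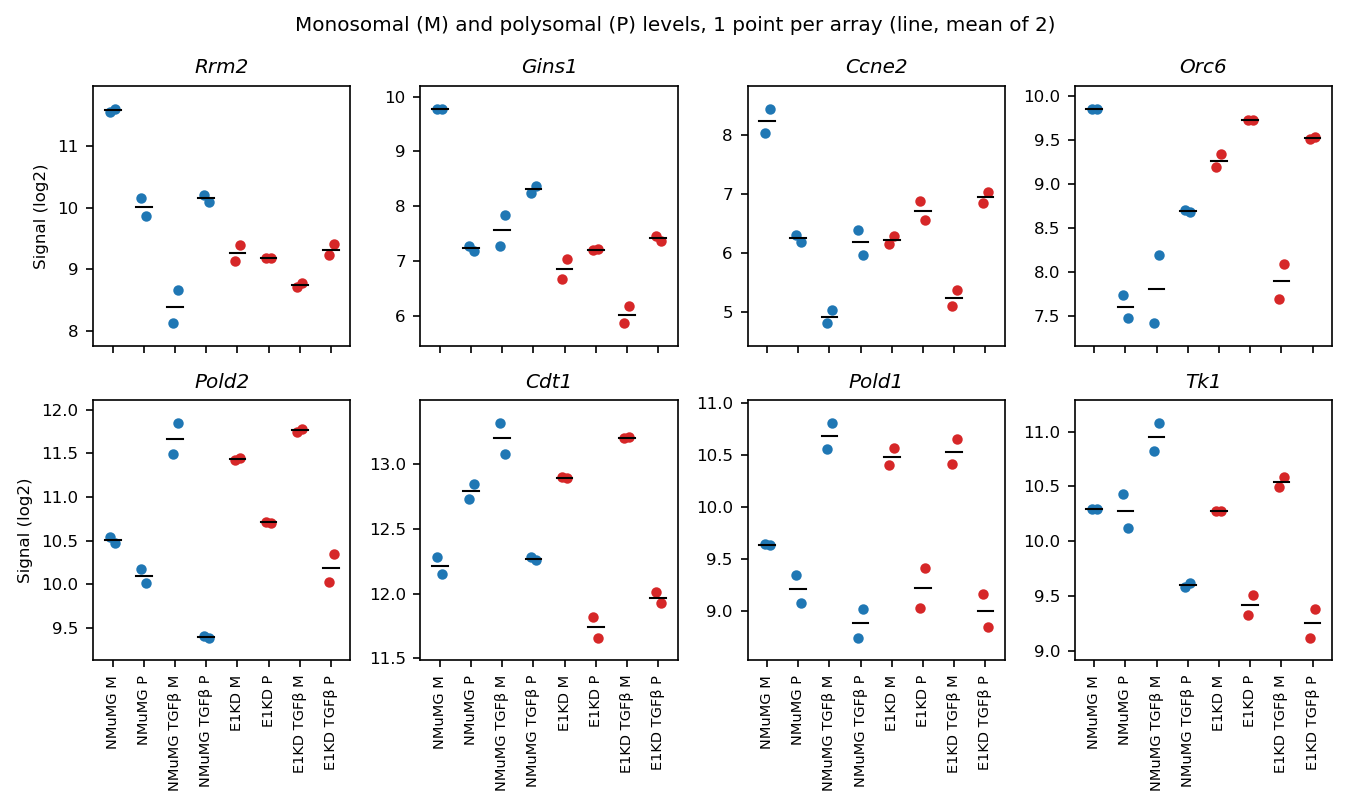
Level (log2 signal) of 8 members on the 16 monosomal (M) and polysomal (P) arrays, with a line at the mean of 2 arrays; blue is NMuMG and red is E1KD. In NMuMG cells Rrm2 went in the monosomal pool from 11.56 and 11.61 to 8.12 and 8.66, with the polysomal level near 10 throughout, and both treated monosomal arrays of Pold2, Cdt1, Pold1 and Tk1 lay above the untreated ones.

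By role, the origin genes Orc2, Orc6, Cdc6 and Gmnn shifted toward polysomes and Orc1 and Cdt1 toward monosomes. The alpha, primase and epsilon genes shifted toward polysomes, all 6 of them, and both delta genes toward monosomes. Of the MCM genes Mcm3, Mcm4, Mcm6 and Mcm7 shifted toward polysomes (0.84 to 3.10) and Mcm5 toward monosomes (-1.20). Mcm3 is uncertain, since its 5 probe sets included calls in opposite directions, with shifts from -0.56 to 1.29. The probe sets of Mcm5 (-1.20 to 0.77), Orc1 (-0.72 to 0.91) and Prim2 (-0.59 to 1.90) also differed in sign, so these are uncertain as well. Over 29 members with more than 1 probe set kept, all probe sets had the same sign in 22. The size of a shift could still differ, as for the 2 probe sets of Gins1, at 1.185 and 3.29. Pcna shifted by 2.42 and Rfc1, the large clamp loader subunit, by 2.54.

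This result depended on the pool set against the polysomes. With total RNA in place of the monosomal pool, an alternative chosen after seeing the data, 11 members shifted toward polysomes and none the other way, the median was 0.32, and Pold1 and Tk1 turned to 0.03 and 0.21. Rrm2, Ccne2, Cdt1 and Pold2 kept their direction and were no longer called. The monosomal pool that sets these values in the untreated cells is the one that stood apart above, and its part in the shift was not tested beyond this. Quantile normalization gave 21 members toward polysomes and 12 toward monosomes, and a median of 0.51 against -0.06 over all probe sets.

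In E1KD cells the shift was smaller, with 14 members toward polysomes and 2 toward monosomes (20.9% and 7.73% of all probe sets) and a median of 0.38 against 0.08. Ccne2 was at 6.15 and 6.28 in the monosomal and 6.87 and 6.55 in the polysomal pool of untreated cells, and at 5.11 and 5.37 and at 6.85 and 7.03 after TGFβ. Orc6 was at 9.20 and 9.34 and at 9.73 on both arrays, then at 7.70 and 8.10 and at 9.51 and 9.54. Here too the treated monosomal arrays were the lower ones and the polysomal level differed by little. The shifts were 1.21 for Ccne2 (SE 0.25, adjusted p = 0.003), 1.17 for Orc6 (SE 0.26, adjusted p = 0.0043), 1.07 for Mcm4 (SE 0.25, adjusted p = 0.0055) and 1.05 for Rfc4 (SE 0.17, adjusted p = 0.00072). Pold2 shifted the other way by -0.85 (SE 0.18, adjusted p = 0.0032), as did E2f1 by -0.52 (SE 0.19, adjusted p = 0.048), a call lost without 7 of the 8 pool arrays of E1KD cells in turn.

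The direction in E1KD cells turned with the reference pool. Against total RNA, which itself rose in these cells, 22 members shifted away from polysomes and 1 toward them, the median was -0.68, and Ccne2, Orc6 and Mcm4 were at -1.45, -0.74 and -1.05. Quantile normalization gave 10 members toward polysomes and 7 toward monosomes, and a median of 0.19 against 0.01 over all probe sets. The count fell to 8 or 9 without the second untreated monosomal, the first untreated polysomal, the first treated monosomal or the second treated polysomal array of E1KD cells.

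**Figure D4:**
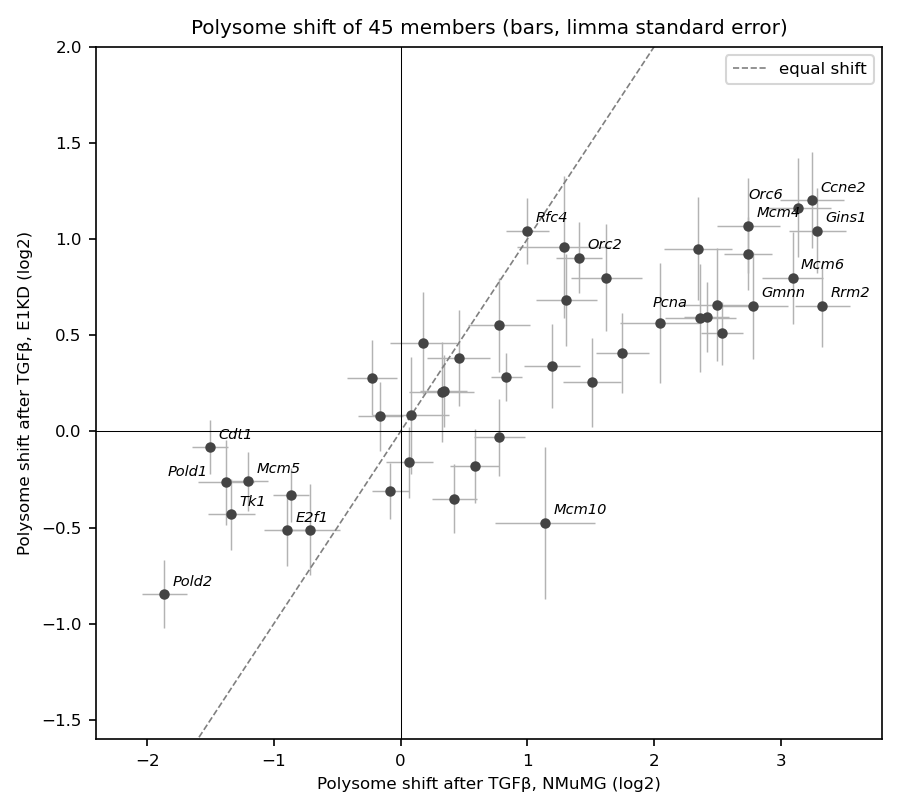
Polysome shift after TGFβ (log2, polysomal minus monosomal, treated minus untreated) of the 45 members in NMuMG cells (horizontal) and E1KD cells (vertical), with limma standard errors; the dashed line marks equal shifts. Most members with a shift above 2 in NMuMG cells, such as Rrm2 (3.33), lie well below the line, and Pold2, Cdt1, Pold1 and Tk1 lie above it.

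Across the 45 members the shifts of the 2 lines correlated at Pearson r = 0.83 and Spearman rho = 0.82, a description across genes, which are not independent replicates and share probe composition. The difference between the lines was tested as an interaction, and the shift of E1KD cells was lower for 22 members and higher for 6 (23.5% and 13.1% of all probe sets), with a median of -0.63 against -0.10 over all probe sets. Rrm2 differed by -2.68 (SE 0.31, adjusted p = 1.6e-05), Mcm6 by -2.30 (SE 0.34, adjusted p = 0.00013), Gins1 by -2.25 (SE 0.32, adjusted p = 8.2e-05) and Gmnn by -2.13 (SE 0.40, adjusted p = 0.00076). The other probe set of Gins1 was at -1.115. Gmnn was at 10.46 and 10.66 in the untreated and 8.08 and 8.97 in the treated monosomal pool of NMuMG cells, and at 8.20 and 8.22 and at 7.73 and 7.64 in that of E1KD cells. The untreated NMuMG arrays were thus the highest of these 8 values.

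Higher in E1KD cells were Cdt1 by 1.43 (SE 0.20, adjusted p = 8.6e-05), Pold1 by 1.11 (SE 0.31, adjusted p = 0.011), Pold2 by 1.02 (SE 0.25, adjusted p = 0.0053), Mcm5 by 0.94 (SE 0.22, adjusted p = 0.0037), Tk1 and Rfc2. The share of members higher was near the 13.1% of all probe sets. The value of Mcm5 is uncertain, as its 3 probe sets ran from -0.87 to 0.94. Cdt1 was at 12.28 and 12.15 in the untreated and 13.32 and 13.08 in the treated monosomal pool of NMuMG cells, against 12.90 and 12.89 and then 13.20 and 13.21 in E1KD cells. With total RNA as the reference 22 members were lower and none higher, and Pold1, Pold2 and Mcm5 turned to -0.37, -0.16 and -0.74, while Cdt1 was no longer called. Median centring gave 4 higher and 22 lower, and quantile normalization 8 and 17, with a median of -0.43. Among the 44 other replication genes 34 shifted toward polysomes and 5 toward monosomes in NMuMG cells (40.1% and 30.3% of all probe sets). In E1KD cells 15 and 3 did (20.9% and 7.73%). The difference between the lines was lower for 25 and higher for 4 (23.5% and 13.1%). Topbp1, which helps to activate the helicase, had the largest shift among those called in NMuMG cells, at 3.86. It was followed by the sister chromatid cohesion gene Dscc1 at 3.31 and the histone chaperone gene Nasp at 3.16.

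The immunoprecipitates asked which messages were recovered with hnRNP E1. Their labels are in conflict: the titles and source names call 2 α-hnRNP E1 arrays untreated and 2 treated, but the sample descriptions name TGFβ for the second untreated array and omit it for the second treated one. Values are given by title first and by description beside them. The comparison of antibodies pools both treatments and so has the same differences either way. Relative to IgG, 21 of 45 members were higher with α-hnRNP E1 and 2 lower, beside 14% and 11.7% of all probe sets, and by description 26 and 3, beside 21.6% and 20.5%. The median was 0.28 against -0.01 over all probe sets, and 34 members lay above 0.

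Cdc45, a component of the active helicase, was at 9.13, 9.18, 9.22 and 9.04 with α-hnRNP E1 and at 8.54, 8.53, 8.28 and 8.23 with IgG. Lig1, the ligase that seals Okazaki fragments, was at 11.57, 11.73, 11.96 and 11.60 against 11.17, 11.14, 10.82 and 10.78. Pold2 was at 10.68, 10.63, 10.84 and 10.58 against 10.02, 10.08, 9.91 and 9.82. All 4 α-hnRNP E1 arrays exceeded all 4 IgG arrays for these genes, and for Mcm10, an early helicase activator (9.20, 9.48, 9.57 and 9.18 against 8.86, 8.88, 8.55 and 8.53). The differences were 0.75 for Cdc45 (SE 0.08, adjusted p = 0.0016), 0.74 for Lig1 (SE 0.10, adjusted p = 0.003), 0.73 for Pold2 (SE 0.09, adjusted p = 0.0022) and 0.65 for Mcm10 (SE 0.11, adjusted p = 0.0063), which are folds of 1.57 to 1.68.

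All 6 MCM genes were called higher, by 0.38 (Mcm5) to 0.57 (Mcm4), as were 5 of 8 polymerase genes and both Okazaki fragment genes. Lower were Rpa3, the small subunit of RPA (9.87, 10.28, 10.11 and 10.10 against 10.56, 10.58, 10.34 and 10.47), by -0.40 (SE 0.10, adjusted p = 0.029), and Gins4 (9.83, 9.97, 9.81 and 10.04 against 10.31, 10.17, 10.24 and 10.29), by -0.34 (SE 0.09, adjusted p = 0.028). The arrays of the 2 antibodies did not overlap for these genes. Rrm2 and Ccne2, which led in total RNA and in the polysome shift, differed by -0.02 and 0.01 and were not called. The count was 13 or 14 without any 1 of the IgG arrays, and neither Rpa3 nor Gins4 was then called. The input RNA was not analysed here.

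**Figure D5:**
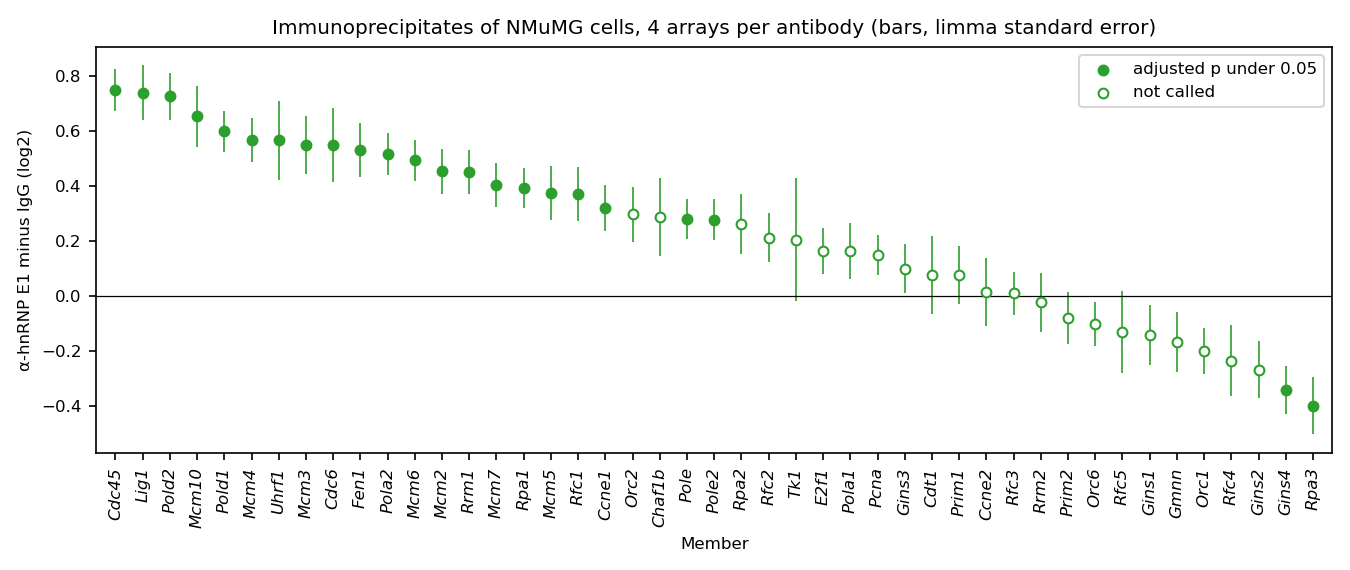
Difference between α-hnRNP E1 and IgG immunoprecipitates of NMuMG cells (log2, 4 arrays each, untreated and TGFβ-treated) for the 45 members in descending order, with limma standard errors; filled symbols have an adjusted p under 0.05. The values run from 0.75 for Cdc45 to -0.40 for Rpa3, and 21 members are called higher and 2 lower.

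No member was called for TGFβ in the IgG immunoprecipitates (0.00393% of all probe sets higher, 0% lower). At an unadjusted p under 0.05, limma gave 6 members and 1765 of all probe sets, and fitting only the 4 arrays compared called 2 members. The difference lay below 0 in 41 of 45 members, against 48.9% of all probe sets, with a median of -0.19. In total RNA of NMuMG cells 41 of 45 were below 0 as well. Most of the overlap of 39 members was therefore fixed by these counts. The differences in total RNA correlated across the 45 members with those in IgG at Pearson r = 0.58 and Spearman rho = 0.54, and with those in α-hnRNP E1 by description at r = -0.69 and rho = -0.61, a description across genes, which are not independent replicates. With α-hnRNP E1 and the titles, none of 45 was called (0% of all probe sets in either direction, and 403 at an unadjusted p under 0.05), and the median was -0.01.

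By description, 7 members were higher after TGFβ with α-hnRNP E1 and none lower, beside 6.09% of all probe sets higher and 8.6% lower, and the median was 0.16. Tk1 was at 10.27 and 10.42 on the arrays described without TGFβ and at 11.13 and 11.21 on those described with it. The titles place 1 of each pair in either treatment, so that Tk1 overlaps between the titled groups and not between the described ones. By description Tk1 rose by 0.83 (SE 0.09, adjusted p = 0.00049), whereas in total RNA of the same line it fell by 0.89. Rfc5, Chaf1b, Uhrf1, Cdt1, Cdc6 and Mcm10 were higher by 0.34 to 0.51. With the treatments of the description turned, the same 7 members would be lower and none higher. The sample numbers within the titles group the 4 α-hnRNP E1 arrays as the descriptions do, and in the IgG titles each such number marks 1 treatment. Fn1, the fibronectin gene, which TGFβ is known to induce, bears on the direction. It was at 9.34 and 9.60 on the α-hnRNP E1 arrays described without TGFβ and at 7.56 and 7.31 on those described with it, but at 8.18 and 8.02 in untreated and 9.29 and 9.34 in treated IgG, and at 9.61 and 9.67 and then 11.49 on both arrays in total RNA. By description all 6 mesenchymal markers past the filter lay below 0, 3 of them called, with a median of -0.53 against 0.33 in IgG, where none was called. The direction by description thus ran against that of these other measures, and the labels do not settle which arrays were treated.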

How the data were processed

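RNA was hybridised by the authors to Affymetrix mouse genome arrays. Per the labels and the study's methods, the authors made the deposited log2 values with RMA in Affymetrix Expression Console (version not given in the sources used here). Their MAS5 detection calls were not used here. Probe sets were named through GEO's platform annotation, and promoters through RefSeq (GRCm38.p6). The number of arrays limits the precision.

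Probe sets were kept whose signal exceeded 5.52, the median over the whole table, on 8 or more of the 32 arrays (25432 of 45101, 64 controls left out). Differences were tested 2-sided with limma 3.58.1 in R 4.3.3, on 24 arrays (12 residual degrees of freedom) and on the 8 immunoprecipitation arrays (4), with Benjamini-Hochberg adjustment over all probe sets kept and a threshold of 0.05. Samples were grouped by title. The code was tested on simulated data with known differences. Figures used Python 3.11.15 and matplotlib 3.10.9.

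Members and lists were chosen with earlier results of these data known. Array values are given for up to 4 members per direction and comparison, those of largest difference among called members whose arrays did not overlap, and for Pcbp1, and up to 3 other replication genes are named; some members were added to follow a gene across comparisons. Alternatives varied the filter, the arrays fitted, a replicate block, the variance prior, the scaling, the probe set, 1 array left out, the sample descriptions and total RNA in place of monosomal RNA.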

Additional observations from a re-analysis of the deposited data

Results flagged for a closer look

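The response to TGFβ differed between the lines by a test of the interaction for 23 members in total RNA: Rrm2 by 2.23, Tk1 by 2.14, Ccne2 by 2.06, Uhrf1 by 1.75 and Orc2 by -0.86, given as E1KD minus NMuMG on the log2 scale. The polysome shift differed for 28 members, with Cdt1 at 1.43, Pold1 at 1.11, Pold2 at 1.02, Mcm5 at 0.94, Rrm2 at -2.68, Mcm6 at -2.30, Gins1 at -2.25 and Gmnn at -2.13. For Mcm5 the 3 probe sets ran from -0.87 to 0.94, and the other probe set of Gins1 was at -1.115. Groups of 2 arrays are too small for a test of single outlying arrays.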

How the results depend on the processing

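For single members named by the rule, 1351 values under the alternatives kept their direction and their side of the threshold. A further 47 kept the direction but were no longer called, and 9 reversed, with causes not tested. The named members were picked for large, called differences in these same data. Their stability was largely set by that choice and says little about the other members. The reversed ones were Rfc4 in untreated NMuMG pools (-0.25, mean of probe sets) and, when total RNA replaced the monosomal pool, Pold1 and Tk1 in the NMuMG shift (0.03 and 0.21), Ccne2, Orc6 and Mcm4 in the E1KD shift (-1.45, -0.74 and -1.05) and Pold1, Pold2 and Mcm5 in the difference of shifts (-0.37, -0.16 and -0.74). That alternative called 11 members in the NMuMG shift in place of 36 and 23 in the E1KD shift in place of 16, of which 1 was higher and 22 lower.

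Members called for TGFβ in NMuMG total RNA numbered 2, but 1 with all 32 arrays in 1 fit, 11 with only the arrays compared, 4 with an intensity trend and 5 after quantile normalization. The knockdown in untreated cells called 20, but 13 with no filter and 13 with median centring. The interaction in total RNA called 23, but 37 with only the arrays compared and 14 with centring on Actb and Gapdh. Fitting only the arrays compared gave 20 in place of 32 for the TGFβ-treated NMuMG pools and 2 in place of 0 for IgG after TGFβ, and the descriptions gave 7 in place of 0 for α-hnRNP E1 after TGFβ.

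With 1 array left out, the calls ran from 1 to 1 (TGFβ, NMuMG), 14 to 16 (TGFβ, E1KD), 12 to 18 (their interaction), 10 to 12 and 16 to 20 (knockdown, untreated and treated), 33 to 40 and 29 to 35 (NMuMG pools, untreated and treated), 19 to 23 and 30 to 32 (E1KD pools), 33 to 36 and 8 to 16 (shift, NMuMG and E1KD), 22 to 27 (difference of shifts) and 13 to 25 (α-hnRNP E1 against IgG), and stayed at 0 for TGFβ within either antibody.

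Replicate numbers did not pair the arrays in a uniform way: deviations of same-numbered arrays correlated at r = -0.38 to 0.32 over 66 pairs of groups (median 0.06). The correlation was above 0.1 in 21 pairs and below -0.1 in 11. Between untreated and TGFβ-treated NMuMG cells it was 0.32 for monosomal, 0.29 for total and 0.003 for polysomal RNA. A pairing within some conditions thus remains possible. With the replicate number as a block, the counts were 2 and 27 for TGFβ in NMuMG and E1KD total RNA, 25 for their interaction, 36 and 16 for the shifts and 19 for α-hnRNP E1 against IgG, and the block moved no count of members by more than 1.5 times.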
